A study of Mus musculus with 20 samples.

Results

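Calcineurin, the nuclear factor of activated T cells (NFAT) family and the feedback gene Rcan1 were followed through bone marrow-derived macrophages with and without the mitochondrial Ca2+ uniporter. The 8 genes, of 21963 in the count table, were Rcan1, Nfatc1, Nfatc2, Nfatc3, Ppp3ca, Ppp3cb, Ppp3cc and Ppp3r1. They were taken by gene symbol, and the set was selected on an earlier result of these libraries, the lower level of Rcan1 after Ca2+ chelation. That chelator contrast is therefore given below as a description, without a test, for all 8 genes. All 8 were among the 11707 genes that passed the filter on low counts.

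Calcineurin is a phosphatase that Ca2+ and calmodulin switch on. It is a pair of proteins, a catalytic A chain encoded by Ppp3ca, Ppp3cb or Ppp3cc and a Ca2+-binding regulatory B chain encoded by Ppp3r1. Active calcineurin removes phosphates from NFATc proteins, which then enter the nucleus and bind DNA until kinases such as GSK3, DYRK and casein kinases return them to the cytoplasm. Rcan1 encodes a calcineurin-binding inhibitor, and transcription from its internal start is a known NFAT target, which makes it a feedback gene. In macrophages this route is known to be engaged by dectin-1, the receptor for the yeast wall β-glucan that zymosan carries, and in osteoclasts, which share a precursor with macrophages, NFATc1 is the leading differentiation factor.

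RNA was sequenced from 20 libraries of macrophages grown from mouse bone marrow, from mice of 15 to 25 weeks. WT cells were left untreated (n = 4), were given zymosan for 3 h at 2 particles per cell (n = 5), or were loaded with 10 µM BAPTA-AM, a Ca2+ chelator that crosses the membrane, and given zymosan for 3 h (n = 4). Both doses are those in the qPCR methods of the study, and its RNA sequencing methods do not state them. Mcu-/- cells were left untreated (n = 4) or were given zymosan for 3 h (n = 3). The knockout was a floxed Mcu allele with Cre driven by Cx3cr1, whether the WT mice carried Cre was not given in the sources used here, and no BAPTA-AM group without zymosan was analysed here. The cells were grown as a bulk culture, so fewer cells of a type and less RNA per cell cannot be told apart.

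Levels are given as CPM, the count of a gene per 1000000 counts of the library after TMM scaling. Total counts were 14.4 to 23.95 M per library, so that 1 CPM stood for 15.7 to 28.1 counts. Mcu itself, the check of the genotype, was at 6.10 to 9.55 CPM in the 13 WT libraries and at 2.63 to 4.05 CPM in the 7 Mcu-/- libraries. Untreated Mcu-/- replicate 4 stood apart from its group, at a root mean square log2 distance of 0.756 from the mean of the other 3, where each of those was at 0.281 to 0.287. The 8 macrophage markers (Adgre1, Cd68, Csf1r, Itgam, Lyz2, Mertk, Fcgr1, Cd14) summed to 13357 to 13742 CPM in WT untreated, 14417 to 14777 in untreated Mcu-/- replicates 1 to 3 and 8556 in replicate 4. With zymosan they summed to 16080 to 16393 CPM in WT, 14321 to 14559 with BAPTA-AM and 10408 to 10767 in Mcu-/-. Of the markers of other cells, Ly6g, Mpo and Elane of neutrophils, Cd3d, Cd3e and Cd3g of T cells and all 4 of mast cells and basophils had at most 3 counts in any library, and Cd209a of dendritic cells had 0. All 6 neutrophil markers summed to 2.14 to 3.71 CPM in WT untreated, 3.23 to 5.35 in WT zymosan and 0.452 to 0.547 in Mcu-/- zymosan. Their sum was 2.14 to 2.77 in untreated Mcu-/- replicates 1 to 3 and 0.159 in replicate 4. The T cell markers summed to 0.0561 to 0.256 CPM in WT untreated, 0.821 to 1.65 in WT zymosan and 0.589 to 0.791 in Mcu-/- zymosan. The 4 B cell markers, nearly all Cd79b, summed to 53.1 to 55.4 CPM in WT untreated, 30.4 to 36.7 in WT zymosan and 12.4 to 13.3 in Mcu-/- zymosan, and to 18.1 in untreated Mcu-/- replicate 4. The 4 fibroblast markers, led by Col1a1, summed to 2.79 to 4.44 CPM in WT zymosan, 22.2 to 29.0 in Mcu-/- zymosan and 16.2 in untreated Mcu-/- replicate 4. The 5 dendritic cell markers, led by Xcr1, summed to 0.597 to 1.10 CPM in WT untreated, 9.05 to 9.65 in WT zymosan and 10.4 to 11.47 in Mcu-/- zymosan.

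Rcan1 (ENSMUSG00000022951) lies on the minus strand at chr16:92391953-92470867 of GRCm38 (mm10) and has 7 annotated transcripts in GENCODE M21. RefSeq gives it an upstream start at position 92466169 and an internal start at position 92400078, 66091 bp apart. The counts are per gene, so they do not show which start was used. The 250 bases before each start are shown because the internal one is known for NFAT control, beside the same stretch before the upstream of the RefSeq starts of Nfatc2, the one of the 8 genes with the largest log2 change with zymosan in WT cells. Sequences are 5′ to 3′ on the strand of the gene, from RefSeq on GRCm38.p6, with capitals on the NFAT core GGAAA, which reads TTTCC on the other strand, the cAMP response element TGACGTCA and the AP-1 site TGANTCA, all searched on both strands. None of these 3 motifs holds another.
Rcan1 before the upstream start, chr16:92466170-92466419: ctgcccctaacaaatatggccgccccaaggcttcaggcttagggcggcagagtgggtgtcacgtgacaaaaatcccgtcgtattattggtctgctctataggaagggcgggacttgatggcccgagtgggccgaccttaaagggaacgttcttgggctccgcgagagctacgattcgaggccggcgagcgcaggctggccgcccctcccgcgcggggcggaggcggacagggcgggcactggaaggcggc
Rcan1 before the internal start, chr16:92400079-92400328: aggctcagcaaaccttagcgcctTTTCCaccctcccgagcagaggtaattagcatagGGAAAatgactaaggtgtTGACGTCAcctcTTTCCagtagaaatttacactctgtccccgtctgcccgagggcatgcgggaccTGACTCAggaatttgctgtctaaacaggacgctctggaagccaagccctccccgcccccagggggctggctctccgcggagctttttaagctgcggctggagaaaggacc
Nfatc2 before its upstream start, chr2:168601658-168601907: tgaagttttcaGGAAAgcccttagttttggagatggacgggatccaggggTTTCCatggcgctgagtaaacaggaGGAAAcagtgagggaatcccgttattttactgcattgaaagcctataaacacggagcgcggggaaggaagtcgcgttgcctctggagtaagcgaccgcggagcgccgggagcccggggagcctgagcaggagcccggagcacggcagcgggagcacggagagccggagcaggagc

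In windows of 250 bases before to 50 after a start, the internal start of Rcan1 had 3 NFAT cores, beginning at −227, −193 and −163 from the start, and 9.42% of 32851 such windows had 3 or more. It also had 1 cAMP response element at −175, which 1.79% of windows had, and 1 AP-1 site at −110, which 7.81% of windows had. The upstream window of Rcan1 had no match to the 3 motifs. The first window of Nfatc2 had 3 NFAT cores, at −239, −200 and −175, and its second window had 1. At least 1 core was found in 61.3% of all windows. The most cores were in the window of Ppp3cb, with 4, which 2.65% of windows had or exceeded, while those of Nfatc3 had 1 and 0 and that of Ppp3r1 had 0. RefSeq windows were at hand for 5 of the 8 genes, 8 windows in all. These matches describe the letters in the window and are not measured binding.

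Rcan1 was low in unstimulated cells and rose with zymosan. Its level was 22.6, 26.2, 25.9 and 20.2 CPM in WT untreated replicates 1 to 4, and 188, 184, 189, 148 and 170 CPM in WT zymosan replicates 1 to 5. The groups did not overlap, and the lowest stimulated library, replicate 4, was still far above the highest untreated one. The mean went from 23.7 ± 2.81 (SD, n = 4) to 176 ± 17.4 (SD, n = 5) CPM, a 7.40-fold rise with a log2 fold change of 2.89 (SE 0.22, adjusted p = 6.51e-10, edgeR).

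**Figure D1:**
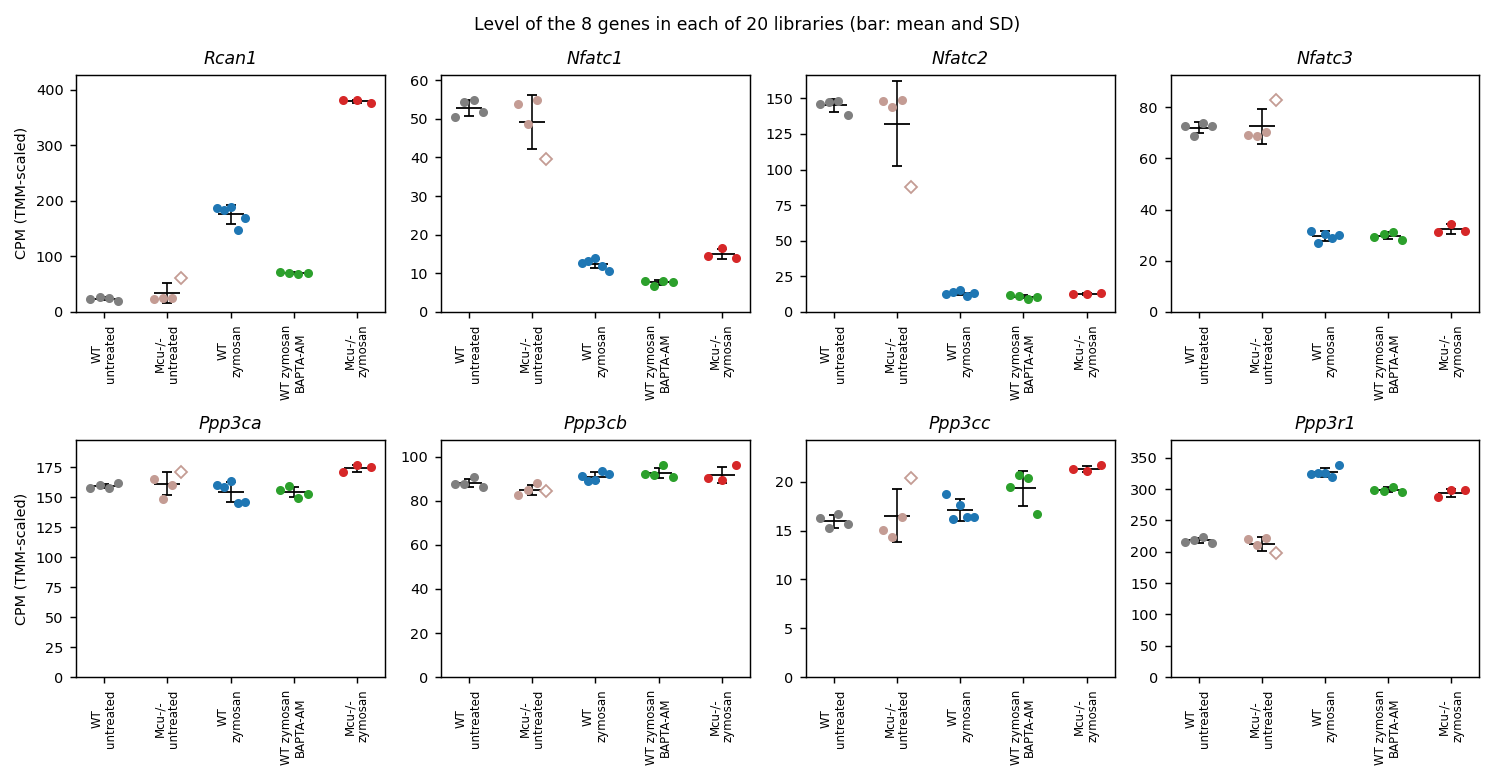
Level of each of the 8 genes in CPM (TMM-scaled, vertical axis from 0) in every library by group; points are libraries, bars the mean and SD, and the open diamond is untreated Mcu-/- replicate 4. Rcan1 stands at 20.2 to 26.2 CPM in WT untreated, 148 to 189 in WT zymosan and 377 to 382 in Mcu-/- zymosan, while Nfatc1, Nfatc2 and Nfatc3 are lower in every stimulated library than in any untreated one.

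The 3 NFATc genes fell in the same cells. Nfatc2 (ENSMUSG00000027544, minus strand of chr2:168476410-168601657), which encodes the NFAT protein also called NFAT1, was at 146, 148, 148 and 139 CPM in WT untreated and at 12.4, 14.2, 15.1, 11.3 and 13.5 CPM in WT zymosan. Every stimulated library was near a common low level, with no overlap. The fall was 10.9-fold, a log2 fold change of −3.44 (SE 0.13, adjusted p = 1.34e-14, edgeR). Nfatc1, the osteoclast factor, was at 50.4, 54.4, 54.9 and 51.9 CPM without and at 12.8, 13.2, 14.03, 11.9 and 10.7 CPM with zymosan, again without overlap. That was 4.22-fold lower, with a log2 fold change of −2.08 (SE 0.09, adjusted p = 1.94e-13, edgeR). Nfatc3 (plus strand of chr8:106058840-106130537), which encodes NFAT4, was at 72.8, 68.9, 73.9 and 72.5 CPM without and at 31.7, 27.0, 30.6, 29.0 and 29.9 CPM with zymosan. It kept the largest part of its level, being 2.43-fold lower with no overlap (log2 −1.28, SE 0.06, adjusted p = 3.6e-13, edgeR).

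Of the calcineurin chains, the regulatory one moved and the catalytic ones did not pass the test in WT cells. Ppp3r1 (plus strand of chr11:17159263-17200375) was at 214 to 224 CPM in the 4 WT untreated libraries and at 319 to 338 CPM in the 5 WT zymosan libraries. The groups did not overlap, and the rise was 1.495-fold (log2 0.58, SE 0.04, adjusted p = 3.34e-11, edgeR). Ppp3ca (plus strand of chr3:136670124-136937727) had a mean of 159 ± 1.96 (SD, n = 4) CPM without and 155 ± 8.37 (SD, n = 5) with zymosan, a log2 difference of −0.04 (adjusted p = 0.390, edgeR). Ppp3cb (minus strand of chr14:20499364-20546573) had means of 88.0 ± 1.80 and 90.9 ± 1.97 CPM, a log2 difference of 0.05 (adjusted p = 0.217, edgeR), and DESeq2 called it higher at 0.08 (adjusted p = 0.0297). Ppp3cc (minus strand of chr14:70217865-70289471) had means of 16.0 ± 0.637 and 17.1 ± 1.10 CPM, a log2 difference of 0.10 (adjusted p = 0.338, edgeR).

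In WT cells, then, 2 of the 8 genes rose with zymosan and 3 fell, where 32.4% of all tested genes rose and 36.8% fell. The marker sums given above moved with zymosan as well, and their part in these values was not tested. The scaling matters for the small changes. TMM factors were 1.22 to 1.24 in WT untreated and 0.865 to 0.881 in WT zymosan libraries, and scaling by library totals alone moved the median of all genes from −0.04 to −0.54. With library totals Ppp3r1 was at 0.09 (adjusted p = 0.0627, edgeR), Ppp3cb and Ppp3cc turned to −0.45 and −0.39, and Ppp3ca was at −0.54. Relative to the median of all genes under library totals, Ppp3r1 was still at 0.62, Ppp3cc at 0.14, Ppp3cb at 0.09 and Ppp3ca at −0.00032, while Rcan1 was at 2.93, Nfatc2 at −3.40, Nfatc1 at −2.03 and Nfatc3 at −1.24.

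**Figure D2:**
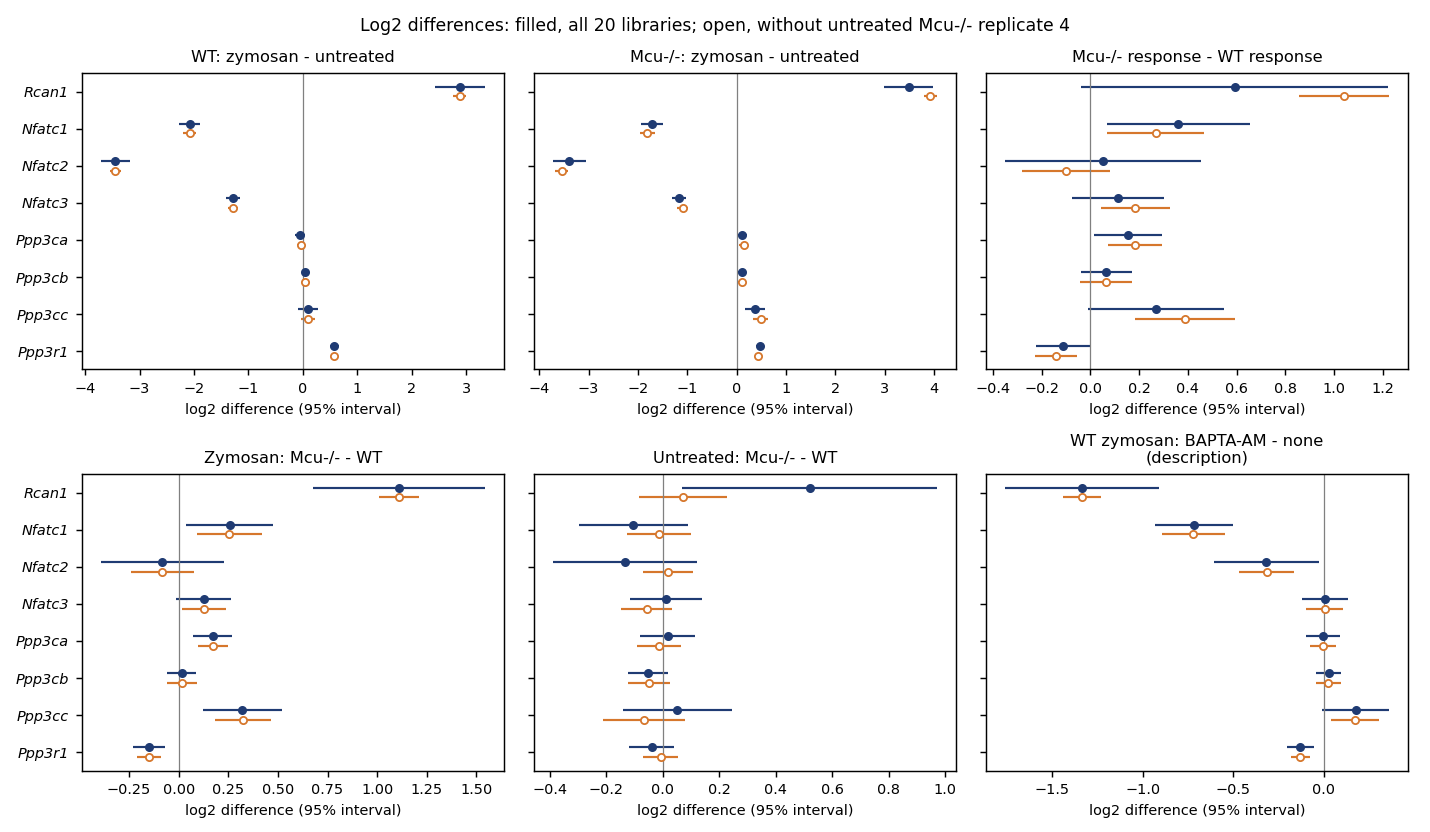
Log2 fold change of the 8 genes in 6 contrasts with 95% intervals from the edgeR fit. Filled points use all 20 libraries, and open points leave out untreated Mcu-/- replicate 4. The BAPTA-AM panel is a description, because that contrast chose Rcan1, and its intervals are not read as a test. Nfatc2 lies at −3.44 and Rcan1 at 2.89 for zymosan in WT cells, and Rcan1 at 1.11 for Mcu-/- against WT with zymosan. Values with library totals are not drawn. With those, Ppp3ca, Ppp3cb and Ppp3cc were below 0 for zymosan against untreated in both genotypes, and Ppp3r1 in Mcu-/-.

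With zymosan, Rcan1 was higher in Mcu-/- than in WT macrophages. The 3 Mcu-/- zymosan libraries were at 381, 382 and 377 CPM, all above the highest WT zymosan library at 189 CPM. The mean of 380 ± 2.84 (SD, n = 3) against 176 ± 17.4 (SD, n = 5) was 2.16-fold higher, a log2 fold change of 1.11 with a 95% interval of 0.68 to 1.54 (SE 0.21, adjusted p = 0.000165, edgeR). By an exact permutation test, two-sided, p was 0.0179, which is the lowest that groups of 3 and 5 can reach. All 26 alternatives kept this call, at log2 values of 1.05 to 1.14 and adjusted p-values up to 0.000973.

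The catalytic chains Ppp3ca and Ppp3cc were also higher in Mcu-/- cells with zymosan, by small amounts, and the regulatory chain was lower. Ppp3cc was at 21.1 to 21.7 CPM in Mcu-/- and at 16.2 to 18.8 in WT zymosan libraries, a log2 fold change of 0.32 (adjusted p = 0.00701, edgeR). Ppp3ca was at 171 to 177 CPM against 145 to 163, a log2 fold change of 0.17 (adjusted p = 0.00457, edgeR). Ppp3r1 was at 287 to 299 CPM against 319 to 338, a log2 fold change of −0.15 (adjusted p = 0.00277, edgeR). The libraries of the genotypes did not overlap for these 3 genes, while Ppp3cb differed by 0.01 (adjusted p = 0.750, edgeR), and by −0.04 with library totals. Between these groups 31.8% of all tested genes were called higher and 30.3% lower, and the share of all genes without overlap was not counted.

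Among the NFATc genes, Nfatc1 was at 14.4, 16.6 and 13.9 CPM in the Mcu-/- zymosan libraries. These overlapped the WT zymosan libraries, whose highest was 14.03 CPM. The log2 fold change was 0.26 (SE 0.10, adjusted p = 0.0400, edgeR), and the call was lost in 8 of 26 alternatives, with adjusted p-values of 0.00563 to 0.207. Leaving out WT zymosan replicate 1, 4 or 5 or Mcu-/- zymosan replicate 3 or 4 was enough to lose it, and without Mcu-/- zymosan replicate 4 the value was 0.18. Nfatc3, at 31.1, 34.4 and 31.6 CPM, differed by 0.13 (adjusted p = 0.103, edgeR), and by the same amount with an adjusted p of 0.0335 without untreated Mcu-/- replicate 4. Nfatc2 was at 12.3, 12.3 and 13.1 CPM, within the WT range of 11.3 to 15.1 CPM, with a log2 difference of −0.08 (adjusted p = 0.647, edgeR).

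Between the genotypes with zymosan, 4 of the 8 genes were called higher in Mcu-/- and 1 lower, where 31.8% of all tested genes were higher and 30.3% lower. Without untreated Mcu-/- replicate 4 the counts were 5 and 1, against 36.4% and 33.7%. Other genes moved with these groups: Lyz2 of the macrophage list had a mean of 3242 CPM in Mcu-/- zymosan and 8183 in WT zymosan, Cd68 of 1158 and 309, and Col1a1 of 21.7 and 2.03. The part of these differences in the values of the 8 genes was not tested.

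Before stimulation the genotypes overlapped for every one of the 8 genes, and the share of all genes that overlapped was not counted. Rcan1 was at 23.8, 25.7 and 25.7 CPM in untreated Mcu-/- replicates 1 to 3, within the range of WT untreated, and at 61.3 CPM in replicate 4, the library that stood apart. With all 4 libraries the log2 difference was 0.52 with a 95% interval of 0.07 to 0.97 (adjusted p = 0.286, edgeR), and without replicate 4 it was 0.07 (adjusted p = 0.754). In replicate 4, Nfatc2 was at 87.6 CPM where the other untreated Mcu-/- libraries were at 149, 144 and 149, and Nfatc1 was at 39.5 CPM beside 53.7, 48.7 and 54.9. For Rcan1, Nfatc1, Nfatc2, Ppp3ca and Ppp3cc, replicate 4 lay between the mean of replicates 1 to 3 and the mean of Mcu-/- zymosan. Nfatc3, Ppp3cb and Ppp3r1 did not lie between, with Nfatc3 at 82.8 CPM in replicate 4 beside 69.0, 68.5 and 70.1, and Ppp3r1 at 198 CPM beside a mean of 217 in replicates 1 to 3 and 294 in Mcu-/- zymosan.

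None of the 8 genes was called between the untreated genotypes by edgeR, with or without replicate 4, or by DESeq2, and 1 of them, Rcan1, had an unadjusted p under 0.05 in edgeR. Over all genes, 0.128% were higher and 0.222% lower with all libraries, and 1.53% and 1.83% without replicate 4. The log2 differences of the other 7 genes lay between −0.13 for Nfatc2 and 0.05 for Ppp3cc.

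Within Mcu-/- cells zymosan moved 4 of the 8 genes up and 3 down, where 34.3% of all genes rose and 39.4% fell. Without replicate 4 it was 5 and 3, against 39.2% and 42.4%. Rcan1 rose 11.1-fold (log2 3.48, SE 0.23, adjusted p = 1.42e-10, edgeR), and 15.1-fold without replicate 4 (log2 3.92). Nfatc2 fell 10.5-fold (log2 −3.39, adjusted p = 5.61e-13, edgeR), Nfatc1 3.29-fold (log2 −1.72, adjusted p = 5.71e-11) and Nfatc3 2.24-fold (log2 −1.17, adjusted p = 2.33e-11). Ppp3r1 was 1.38-fold higher (log2 0.47, adjusted p = 5.56e-09, edgeR), Ppp3cc was higher by 0.37 (adjusted p = 0.00264) and Ppp3cb by 0.11 (adjusted p = 0.0110), whereas with library totals these 3 values turned to −0.05, −0.15 and −0.41. The call of Ppp3cb was lost without Mcu-/- zymosan replicate 5 (0.08, adjusted p = 0.0949), with no filter (adjusted p = 0.0812) and with the groups compared alone (adjusted p = 0.0755). Ppp3ca was at 0.11 (adjusted p = 0.0544), at 0.14 without untreated Mcu-/- replicate 4 (adjusted p = 0.0024), at 0.11 without WT zymosan replicate 4 (adjusted p = 0.0465) and at −0.41 with library totals. It was also called by DESeq2 (0.16, adjusted p = 0.00313), which called all 8 genes here, and by edgeR with DESeq2's size factors (0.16, adjusted p = 0.00785). Relative to the median of all genes under library totals, which was −0.58, Ppp3r1 was at 0.53, Ppp3cc at 0.43, Ppp3ca at 0.17 and Ppp3cb at 0.17.

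Whether the genotypes differed in their response to zymosan was tested as an interaction, and its result for Rcan1 rested on 1 library. With all libraries the response of Rcan1 was larger in Mcu-/- by a log2 of 0.59 with a 95% interval of −0.04 to 1.22 (adjusted p = 0.132, edgeR). Without untreated Mcu-/- replicate 4 it was larger by 1.04 with an interval of 0.85 to 1.23 (adjusted p = 1.43e-12). The remaining untreated libraries of both genotypes were then at 20.2 to 26.2 CPM. The macrophage markers summed to 8556 CPM in replicate 4, 14417 to 14777 in replicates 1 to 3 and 10408 to 10767 in Mcu-/- zymosan. For the fibroblast markers these sums were 16.2, 0.876 to 1.88 and 22.2 to 29.0. The dendritic cell sum of replicate 4, 0.675 CPM, was near replicates 1 to 3 and not Mcu-/- zymosan, as was its T cell sum. The part of these differences in the interaction was not tested.

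Of the 8 genes, 0 passed the interaction test in edgeR with all libraries, 2 had an unadjusted p under 0.05, and DESeq2 called 1, Ppp3ca. All genes gave 15.2% higher and 20% lower. Without replicate 4, 5 genes were higher and 1 lower, against 31.0% and 29.3% of all genes. Besides Rcan1 these were Ppp3cc (0.39, adjusted p = 0.00105, edgeR), Nfatc1 (0.27, adjusted p = 0.0180), Nfatc3 (0.19, adjusted p = 0.0211), Ppp3ca (0.18, adjusted p = 0.00358) and, lower, Ppp3r1 (−0.14, adjusted p = 0.0041). Nfatc1 was at 0.36 with all libraries (adjusted p = 0.0507) and passed when untreated Mcu-/- replicate 1 (0.41) or 3 (0.42), WT zymosan replicate 3 (0.41) or BAPTA-AM replicate 2 (0.36) was left out instead. For Nfatc2 the interaction was 0.05 (adjusted p = 0.857), and −0.10 without replicate 4 (adjusted p = 0.344).

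Loading WT cells with BAPTA-AM before zymosan went with a lower level of Rcan1, the value that chose it. The BAPTA-AM libraries were at 71.9, 69.4, 67.6 and 69.9 CPM, below all 5 WT zymosan libraries and above all WT untreated ones. Against WT zymosan this was 2.52-fold lower (log2 −1.34, SE 0.20), and against WT untreated 2.93-fold higher (log2 1.55, SE 0.22). Of the mean increase of 152 CPM with zymosan, 46.0 CPM or 30.2% was present with BAPTA-AM. In order of the mean, Rcan1 thus ran from WT untreated through Mcu-/- untreated, BAPTA-AM with zymosan and WT zymosan to Mcu-/- zymosan, and of the neighbours in that order only the untreated groups overlapped.

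Nfatc1 was also lower with the chelator, at 8.001, 6.71, 7.88 and 7.84 CPM, below all 5 WT zymosan libraries. The ratio was 1.65-fold (log2 −0.72, SE 0.10), so Nfatc1 was farther from its untreated level with BAPTA-AM than without. Nfatc2 was at 12.1, 10.8, 9.34 and 10.5 CPM, overlapping WT zymosan (log2 −0.32, SE 0.14), and Nfatc3 at 29.3, 30.6, 31.3 and 27.9 CPM (log2 0.01). Ppp3r1 was at 295 to 304 CPM, below the 319 to 338 of WT zymosan (log2 −0.13, SE 0.04). The catalytic chains gave log2 values of 0.00 for Ppp3ca, 0.03 for Ppp3cb and 0.18 for Ppp3cc, all overlapping. Measured from WT untreated, the log2 values with BAPTA-AM and zymosan were −3.76 for Nfatc2, −2.80 for Nfatc1, −1.27 for Nfatc3 and 0.45 for Ppp3r1.

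Set against length, the family changed its make-up on stimulation. Length here is the union of all annotated exons and not that of the transcripts expressed, so ranks and shares between genes depend on it. On the scale of CPM per kb of exon, Ppp3r1 had the highest level of the 8 genes in 4 of the 5 groups, at a mean of 67.7 in WT untreated, 65.9 in Mcu-/- untreated, 101 in WT zymosan and 92.6 with BAPTA-AM. Rcan1 stood at 7.69 in WT untreated, below Ppp3ca (16.0), Nfatc2 (13.7) and Ppp3cb (9.99), and above Nfatc1 (7.08), Nfatc3 (6.14) and Ppp3cc (5.34). In Mcu-/- zymosan Rcan1 was at 123, above Ppp3r1 at 91.2, and in WT zymosan at 57.0, next after it.

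**Figure D3:**
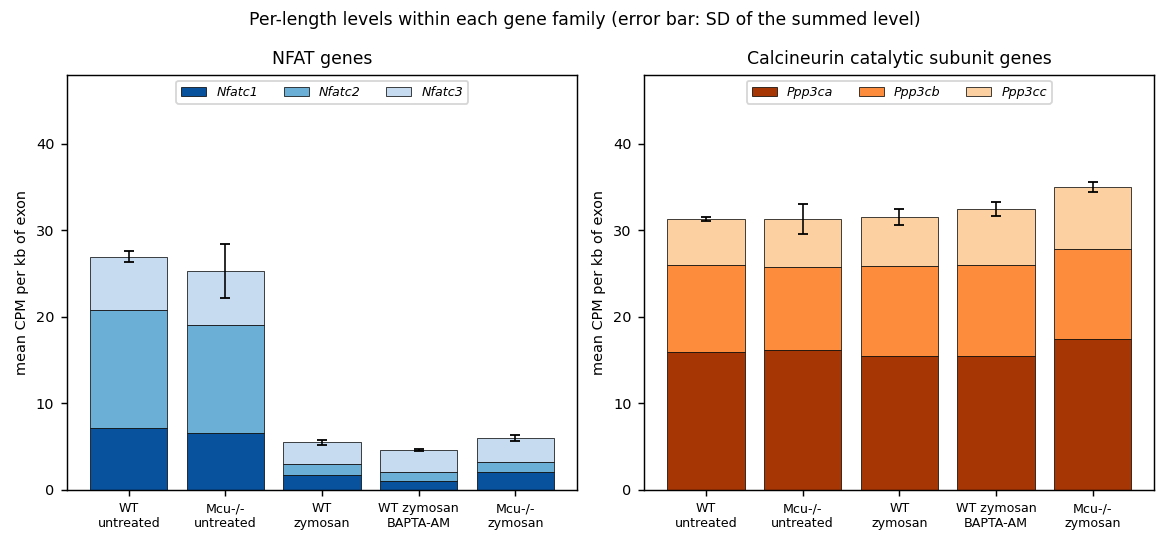
Mean level per exon length (CPM per kb) of the NFATc genes and of the catalytic chains, stacked by gene, in the 5 groups, with the SD of the sum over libraries as the error bar. The NFATc sum is 26.9 in WT untreated and 5.46 in WT zymosan, while the catalytic sum is 31.3 and 31.5.

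The 3 NFATc genes summed to 26.9 ± 0.600 CPM per kb in WT untreated (SD, n = 4), 25.3 ± 3.16 in Mcu-/- untreated, 5.46 ± 0.303 in WT zymosan (n = 5), 4.57 ± 0.126 with BAPTA-AM and 5.95 ± 0.316 in Mcu-/- zymosan (n = 3). Nfatc2 made up 50.9% of that sum in WT untreated cells and 23.0% with zymosan, where Nfatc3 went from 22.8% to 46.3%. Nfatc3 was thus the NFATc gene with the highest level per length in all 3 stimulated groups, with 55.6% with BAPTA-AM and 46.4% in Mcu-/-. The catalytic chains summed to 31.3 ± 0.259 CPM per kb in WT untreated, 31.5 ± 0.962 in WT zymosan and 35.0 ± 0.615 in Mcu-/- zymosan. Their order of Ppp3ca, Ppp3cb and Ppp3cc was the same in all 5 groups, with shares of 51.0%, 31.9% and 17.1% in WT untreated and 49.8%, 29.8% and 20.4% in Mcu-/- zymosan.

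The wider pathway was read from 7 lists of 55 genes, of which 44 were tested. The lists were written with earlier results of these data known, so their counts are a description, and no set test was run. With zymosan in WT cells 21 of these rose and 14 fell, against 32.4% and 36.8% of all genes, and between the genotypes with zymosan 16 were higher and 12 lower in Mcu-/-, against 31.8% and 30.3%. In Mcu-/- cells zymosan moved 19 up and 14 down, against 34.3% and 39.4%. The interaction called 11 higher and 10 lower, against 15.2% and 20% of all genes, and BAPTA-AM called 3 higher and 4 lower, where 6.43% and 6.33% of all genes were called. Without untreated Mcu-/- replicate 4 the BAPTA-AM counts were 10 and 13, against 15.3% and 16.5%, and the interaction counts were 15 and 14, against 31.0% and 29.3%. Between the untreated genotypes 1 list gene was called, Il12b, which had a mean below 1 CPM in both groups and is named, after its values were seen, because it was the only one. Without replicate 4 its call was lost (adjusted p = 0.0888, edgeR), and 3 others were called, Acp5 higher (0.20, adjusted p = 0.0154) and Tnf (−0.14, adjusted p = 0.0287) and Il10 (−0.30, adjusted p = 0.0422) lower, named for the same reason. With all libraries these 3 were not called, and Acp5 (−0.04) and Tnf (0.14) had the other sign, while Il10 was at −0.45.

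The NFAT kinases, which return NFAT to the cytoplasm, were all tested. Of the 11, 8 were higher and 0 lower in Mcu-/- with zymosan, against 31.8% and 30.3% of all genes, with a median log2 fold change of 0.34 beside 0.02 over all genes. Without untreated Mcu-/- replicate 4, 8 were higher and 1 lower, against 36.4% and 33.7% of all genes. Mapk14, which encodes p38α, was at a mean of 180 CPM in Mcu-/- and 108 in WT zymosan (log2 0.74, adjusted p = 7.78e-08, edgeR). Dyrk2 was higher by 0.63 (adjusted p = 8.12e-05) and Gsk3b by 0.40. With zymosan in WT cells 5 of the 11 rose and 4 fell, led by Dyrk2 (log2 1.73, adjusted p = 3.24e-11, edgeR), Gsk3b (0.94, adjusted p = 6.21e-10) and Dyrk1a (0.78). With BAPTA-AM, Mapk8, which encodes JNK1, was higher by 0.38 (adjusted p = 6.99e-05, edgeR) and Csnk1e by 0.25 (adjusted p = 0.01004).

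Of 7 tested calcineurin regulators and partners, 4 were lower and 0 higher in Mcu-/- with zymosan, against 30.3% and 31.8% of all genes, with a median of −0.16, and 3 were not called. Fkbp1a, whose protein FKBP12 carries FK506 to calcineurin, was lower (log2 −0.64, adjusted p = 9.67e-06, edgeR), Ppia, which encodes the cyclosporin receptor cyclophilin A, was at −0.58 and Chp1, a calcineurin B homologue, at −0.29. Calm3, a calmodulin gene, was at −0.41. In WT cells zymosan raised 4 of the 7 and lowered 3, among them Rcan3, the other tested gene of the Rcan family, which fell by 1.19 on the log2 scale (adjusted p = 6.89e-10, edgeR). Rcan2 had at most 2 counts in any library, and Ppp3r2, a second regulatory chain gene, had 0.

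Among other calcineurin substrates, 7 of 9 fell with zymosan in WT cells and 1 rose, against 36.8% and 32.4% of all genes, with a median of −0.68 beside −0.04 over all genes. Tfeb, the lysosomal transcription factor, went from a mean of 37.7 to 3.74 CPM (log2 −3.33, adjusted p = 4.57e-15, edgeR). Crtc1 was at −1.19, and Crtc2, the other CREB coactivator named by the rule, rose by 0.97. Tfeb was higher with BAPTA-AM, by 0.42 (adjusted p = 0.0395, edgeR). Nfat5, which does not depend on calcineurin, rose with zymosan by 0.49 (adjusted p = 4.42e-06), was lower in Mcu-/- (−0.18, adjusted p = 0.0489) and fell with BAPTA-AM from 70.9 to 55.0 CPM (log2 −0.37, adjusted p = 0.00157).

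All 8 tested genes linked to NFAT in the dectin-1 response rose with zymosan in WT cells, against 32.4% of all genes, with a median of 2.98. Ptgs2, the inducible cyclooxygenase, went from a mean of 0.687 to 216 CPM, Tnf from 101 to 1743 CPM and Il12b from 0.0671 to 103 CPM. In Mcu-/- cells with zymosan, 5 of the 8 were higher and 1 lower than in WT, against 31.8% and 30.3% of all genes. Ptgs2 was at 500 CPM (log2 1.21, adjusted p = 0.000222, edgeR) and Tnf at 3717 CPM (log2 1.09, adjusted p = 5.82e-06), while Egr3 was at 15.02 against 33.0 CPM (log2 −1.13, adjusted p = 0.00113). With BAPTA-AM 3 of the 8 were lower, and 6 without untreated Mcu-/- replicate 4, against 6.33% and 16.5% of all genes. As the list was written with earlier results known, these shares do not test it as a set. The 3 were Il12b from 103 to 42.3 CPM (log2 −1.29, adjusted p = 5.14e-08, edgeR), Nr4a1 from 5.83 to 3.07 CPM (log2 −0.92, adjusted p = 0.0167) and Egr2 from 4.10 to 2.52 CPM (log2 −0.70, adjusted p = 0.0300). Il2, Csf2 and Il23a did not pass the filter on low counts.

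Of the osteoclast genes linked to NFATc1, 5 of 9 were tested. Acp5, tartrate-resistant acid phosphatase, rose by 0.94 in WT cells (adjusted p = 0.000113, edgeR). In Mcu-/- with zymosan, Mmp9 was at 71.7 CPM against 216 in WT (log2 −1.59), Acp5 at 49.3 against 104 CPM (log2 −1.08) and Atp6v0d2, a proton pump subunit, at 17.6 against 7.34 CPM (log2 1.26).

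The genes whose pattern over the 5 group means was most like that of Rcan1 were picked from 8349 genes by the root mean square difference of centred log2 levels, as a description. The nearest was Hbegf, the heparin-binding EGF-like growth factor, at 0.156, with means of 0.546 CPM in WT untreated, 7.44 in WT zymosan, 3.35 with BAPTA-AM and 14.5 in Mcu-/- zymosan. Plaur, the urokinase receptor, was at a distance of 0.296 and had means of 20.1, 82.8, 51.0 and 259 CPM in the same order. Tarm1, a myeloid surface receptor, was at 0.283, and Tmem171 and Pcdh7, a protocadherin, were both at 0.347. The distances used a pseudocount of 0.5 CPM, and in WT untreated Hbegf was near it and Tarm1 below it, at 0.145 CPM. In the edgeR fit the log2 response to zymosan in WT cells was 3.73 for Hbegf and 4.14 for Tarm1, beside 2.89 for Rcan1. It was 2.59 for Tmem171, 2.15 for Pcdh7 and 2.04 for Plaur. For BAPTA-AM against WT zymosan the log2 values were −1.16 for Hbegf, −0.93 for Tarm1 and −0.70 for Plaur. They were −0.60 for Pcdh7 and −0.30 for Tmem171, beside −1.34 for Rcan1. The pattern that picked these genes includes this contrast, so it is given without a test. Without untreated Mcu-/- replicate 4, Hbegf, Tarm1 and Plaur kept ranks 1, 2 and 3, and Tmem171 and Pcdh7 came to ranks 6 and 7.

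**Figure D4:**
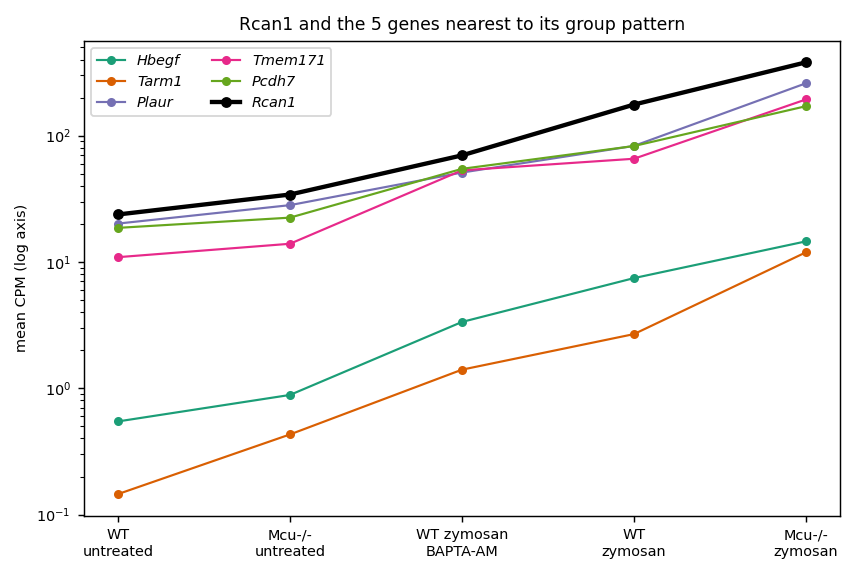
Mean level (CPM, log axis) of Rcan1 and of the 5 genes with the most similar pattern over the 5 groups, each group mean joined by a line. All 6 are lowest in WT untreated and highest in Mcu-/- zymosan, with BAPTA-AM below WT zymosan. This shared order follows from how the genes were picked. Hbegf runs from 0.546 to 14.5 CPM and Rcan1 from 23.7 to 380 CPM.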

How the data were processed

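RNA-seq was done on 20 libraries in 5 groups. The counts deposited by the authors are reads per gene without normalization, made with cutadapt, STAR on mm10 and HTSeq; tool versions, the annotation and the strand setting of the counting are not given in the sources used here. Labels gave the group of every column. Those of Mcu-/- zymosan are numbered 3 to 5 while their labels count 1 to 3, so they were assigned by group and are named by column. The labels call the replicates biological without tying them to animals, so the p-values measure the spread between these samples. The 8 genes and the lists were chosen with earlier results of these data known.

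In R 4.3.3, genes were filtered with filterByExpr, scaled by TMM and fitted over all libraries by edgeR 4.0.16 (quasi-likelihood, 1 coefficient per group, with limma 3.58.1). An adjusted p (Benjamini-Hochberg over all tested genes) under 0.05 was a call. DESeq2 1.42.0, other scalings and filters, the groups compared alone, a replicate block, a minimum absolute log2 fold change of 1 and leaving out each library were alternatives. The scripts were tested on simulated data. Named list genes were at most 3 per list and contrast, the called genes with the largest change and a mean of at least 1 CPM; the genes most like Rcan1 were 5 with at least 10 CPM in their highest group and a pseudocount of 0.5 CPM. Levels per kb used exon unions from GENCODE M21. A list gene that met the naming rule is not reported here.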

Additional observations from a re-analysis of the deposited data

Results flagged for a closer look

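Of 32 groups of 4 or 5 libraries, 4 held a library far from the others of its group by Dixon's 95% criterion, where chance gives about 1 in 20. In 3 of these it was untreated Mcu-/- replicate 4, with Rcan1 at 61.3 CPM, Nfatc2 at 87.6 CPM and Nfatc3 at 82.8 CPM, and its gap to the nearest library took 0.947, 0.919 and 0.887 of the range of the group. The same library had 8556 CPM over the macrophage markers, where the other 3 had 14417 to 14777. The fourth was Nfatc1 in BAPTA-AM replicate 2, at 6.71 CPM, where the gap took 0.874 of the range.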

How the results depend on the processing

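Of the values of single genes under the alternatives, 1194 were counted as unchanged, 12 lost a call, 20 gained one, 17 changed sign and 2 moved by more than the replicate spread. In the tested contrasts, unchanged means the same direction and side of the threshold. The BAPTA-AM values of genes other than Rcan1 had no test and counted as unchanged when they moved by less than the replicate spread. Small ones could change sign and still count so, as Nfatc3 did (−0.026 to 0.068). Scaling by library totals, which lowers all stimulated groups, turned Ppp3cb (−0.45) and Ppp3cc (−0.39) for zymosan in WT cells. Within Mcu-/- cells it turned Ppp3ca (−0.41), Ppp3cb (−0.41), Ppp3cc (−0.15) and Ppp3r1 (−0.055), between genotypes with zymosan Ppp3cb (−0.038), and between the untreated genotypes Nfatc3 (−0.013) and Ppp3ca (−0.0054). Without single libraries, differences between the untreated genotypes changed sign for Nfatc2 (−0.20 to 0.018), Nfatc3 (−0.057 to 0.038), Ppp3ca (−0.012 to 0.055) and Ppp3cc (−0.066 to 0.11), as did Ppp3cb between genotypes with zymosan (−0.020 to 0.033) and the interaction of Nfatc2 (−0.10 to 0.11). The interaction called 1 of the 8 genes with at least 10 counts in every library, 1 by DESeq2 and 0 to 6 without single libraries. With a minimum absolute log2 fold change of 1, calls among the 8 genes were 1 between genotypes with zymosan and 4 within Mcu-/- cells. Calls among the pathway genes were then 11 for zymosan in WT, 6 between genotypes with zymosan, 12 within Mcu-/- cells, 4 in the interaction and 1 with BAPTA-AM. The BAPTA-AM calls among pathway genes were 13 with library totals, 21 with the groups compared alone and 4 to 23 without single libraries. Between the untreated genotypes they were 0 with at least 10 counts in every library, 2 by DESeq2, 0 with the groups compared alone and 0 to 3 without single libraries. The cause of these changes was not tested. The main fit estimated the spread between replicates over all groups together. Its common coefficient of variation was 12.4%, and 3.56% without untreated Mcu-/- replicate 4. For zymosan in WT cells, a contrast without that library, the SE of Rcan1 was 0.22 with it in the fit and 0.06 without it. Over all genes, BAPTA-AM calls were 1494, and 3529 with the groups alone; interaction calls were 4122, and 7039 without untreated Mcu-/- replicate 4; untreated genotype calls were 41, and 112 by DESeq2.

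The fit with a replicate block gave 2.90 for Rcan1 with zymosan in WT cells. It changed no call among the 8 genes for zymosan in WT cells or between the untreated genotypes. Contrasts with Mcu-/- zymosan were not read from it. Libraries with the same number correlated at −0.088 to 0.073 in their deviations, so the numbers were not taken to pair them, and the Mcu-/- zymosan libraries have no number to pair.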
